A study of Mus musculus with 6 samples.

Results

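The 6 GATA transcription factors of the mouse (Gata1 to Gata6) were followed with 4 of their partners: the FOG cofactors Zfpm1 and Zfpm2 and the LIM partners Ldb1 and Lmo2. The members were found by gene symbol. All 10 were measured, by 17 probe sets, among 18193 genes. The RNA was taken from uterine horn of GATA2 f/f mice, females of mixed background that were 8 weeks old and ovariectomized, and was hybridised to 6 Affymetrix arrays, 3 after Oil and 3 after P4 (progesterone). Both groups carry the f/f genotype, which by convention means a floxed allele that still makes a functional product until a recombinase acts. No recombinase, dose or time after treatment is named in the labels. Nothing in them says that the 3 arrays of a group came from separate animals, so the p-values measure the spread between these arrays, which may be technical.

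GATA factors bind DNA through a pair of zinc fingers. Gata1, Gata2 and Gata3 are best known from blood cells, and Gata4, Gata5 and Gata6 from heart, gut and gonad. In the uterus Gata2 is expressed in endometrial epithelium and stroma and is needed for the response to progesterone. FOG proteins dock on the N-terminal finger and bring corepressors such as the NuRD complex and CtBP. Lmo2 and Ldb1 join GATA factors to basic helix-loop-helix proteins such as TAL1, with Ldb1 as the dimerising bridge between distant DNA sites and SSBP proteins protecting Ldb1 from breakdown.

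Each array gives a linear intensity for every probe set, with no absolute unit. Array medians lay between 117 and 123. Epithelial (7 of 7 measured), stromal (8 of 8) and smooth muscle (6 of 6) genes were above the median of all probe sets on every array. The hybridisation controls differed by -0.13 log2, P4 minus Oil. The 3' to 5' signal ratio of the Gapdh control was 2.37 on the array P4 replicate 1 and 1.5 to 1.84 on the others. In RNA of a whole organ, fewer cells of a type and less RNA per cell cannot be told apart.

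Gata2 was the member that rose after P4, and Ldb1 was the member that fell. The other 8 members had an adjusted p of 0.05 or above. A gene counts as called at an adjusted p under 0.05 by limma, adjusted over all 18193 genes. Differences are log2(intensity + 16), P4 minus Oil, ± SE. Of all genes 13% were called, 6.08% higher and 6.94% lower, so 2 of 10 members is close to the background. An unadjusted p under 0.05 was found for 26.6% of all genes. The median difference of the 10 members was -0.0089, and that of all genes was -0.011. With the replicate number as a block, 4 members were called, 2 higher (Gata2, Zfpm1) and 2 lower (Ldb1, Lmo2), against 20.9% of all genes, 9.29% higher and 11.6% lower. The labels give no pairing of same-numbered arrays, and the block was inferred from these same values. The P4 and Oil arrays did not overlap for 3 members, 2 higher and 1 lower, and for 31.8% of all genes, 14.3% higher and 17.5% lower. With both arrays numbered 2 left out, 0 members were called by limma, and 171 of all genes were.

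**Figure D1:**
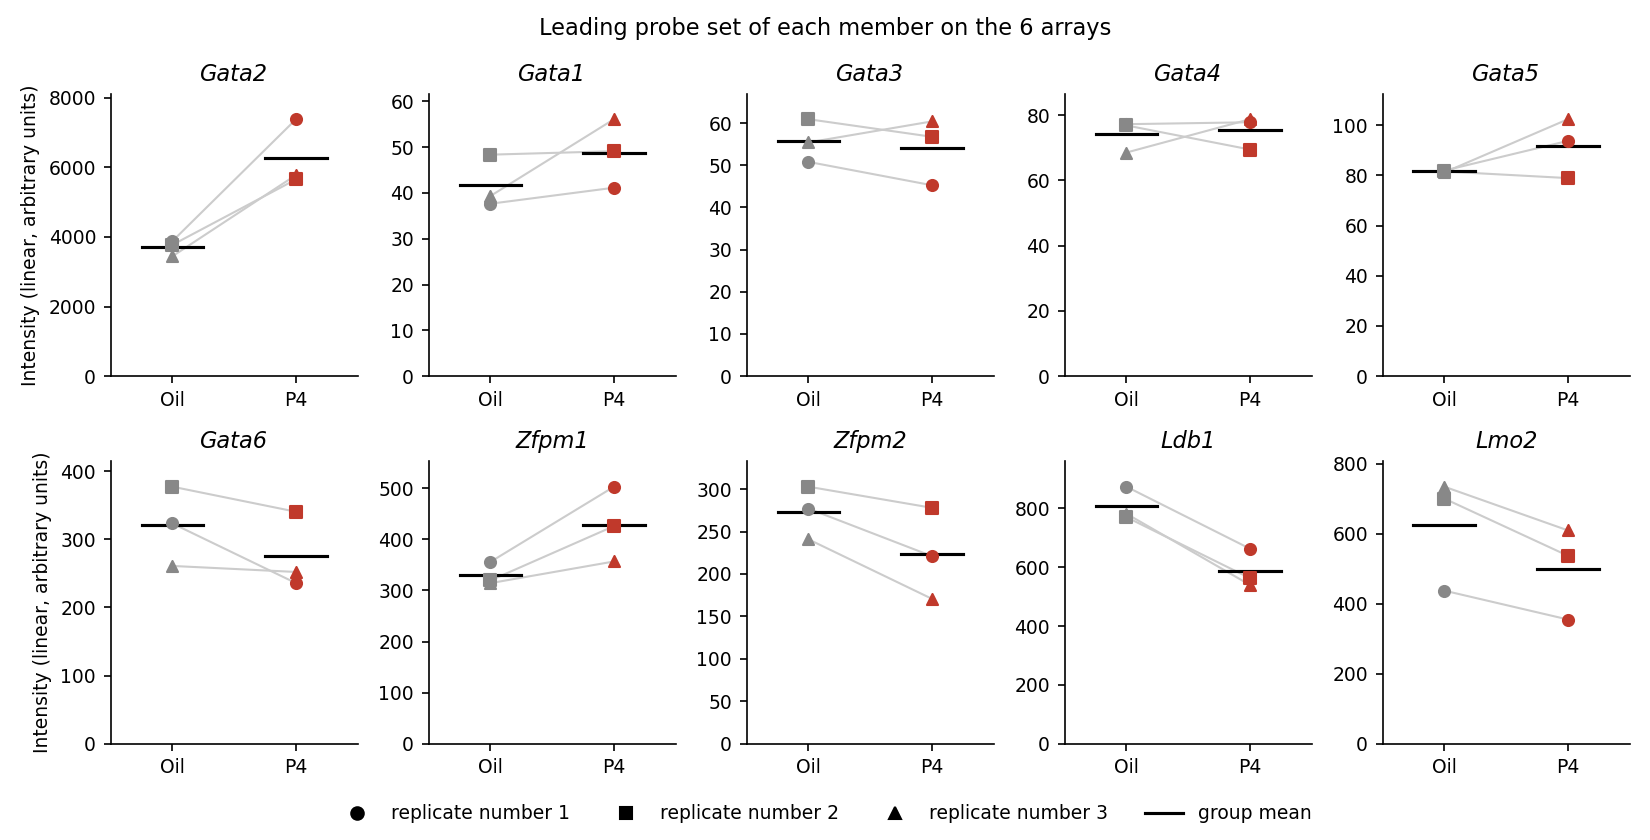
Intensity (linear, arbitrary units, axis from 0) of the leading probe set of each member on the 3 Oil arrays (grey) and the 3 P4 arrays (red); symbols give the replicate number, thin lines join arrays of the same number and black bars are group means. Gata2 and Zfpm1 were higher and Ldb1 lower on all P4 arrays than on any Oil array, while the groups overlapped for the other 7 members.

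Gata2 had intensities of 3879, 3773 and 3445 on the 3 Oil arrays and 7382, 5653 and 5779 on the 3 P4 arrays (probe set 1450333_a_at). Every P4 array was above every Oil array, and P4 replicate 1 was the highest of all. The group means were 3699 ± 227 and 6271 ± 964 (SD, n = 3), a ratio of 1.70. The log2 difference was 0.75 ± 0.11 with a limma adjusted p of 0.00541.

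P4 replicate 1, the brightest array for Gata2, was also the array with the highest 3' to 5' ratio of the Gapdh control. Without it the difference was 0.63, with a limma adjusted p of 0.00451. The call held in each of the 6 fits that left out 1 array (0.63 to 0.82, limma adjusted p at most 0.0306), but not with both arrays numbered 2 left out (0.83, limma adjusted p 0.0793).

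The second Gata2 probe set, 1428816_a_at, rose as well. It read 1789, 1741 and 1367 after Oil, and 3310, 2563 and 2214 after P4. No P4 array lay in the range of the Oil arrays. In a fit over the 34945 probe sets with 1 gene symbol, of which 10.1% were called (5.08% higher and 5.04% lower), 2 member probe sets were higher and 1 was lower. With the replicate block 3 were higher and 2 lower, against 17.4% of all probe sets, 8.4% higher and 9.03% lower. For 1428816_a_at the difference was 0.71 ± 0.16 with a limma adjusted p of 0.0259, and for 1450333_a_at it was 0.75 ± 0.11 with 0.00513. The call of 1428816_a_at was lost without Oil replicate 1, 2 or 3 or without P4 replicate 2 (limma adjusted p 0.0594 to 0.0751).

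RefSeq lists 2 Gata2 starts on the forward strand (build GRCm38.p6), shown because Gata2 is the member that rose: an upstream one and one inside the gene, each given here as the 250 bases before it. The capitals mark the GC box GGGCGG, searched on both strands.
Gata2, upstream start, chr6:88193641-88193890: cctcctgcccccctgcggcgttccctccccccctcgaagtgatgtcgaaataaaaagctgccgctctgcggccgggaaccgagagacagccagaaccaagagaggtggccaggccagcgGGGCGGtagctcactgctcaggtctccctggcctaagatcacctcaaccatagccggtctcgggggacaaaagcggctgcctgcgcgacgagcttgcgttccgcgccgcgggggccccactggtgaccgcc
Gata2, inner start, chr6:88198414-88198663: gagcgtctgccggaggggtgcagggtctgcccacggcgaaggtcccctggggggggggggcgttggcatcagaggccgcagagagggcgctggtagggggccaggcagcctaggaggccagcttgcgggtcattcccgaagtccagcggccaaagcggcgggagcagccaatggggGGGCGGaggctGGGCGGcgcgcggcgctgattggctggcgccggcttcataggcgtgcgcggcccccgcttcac
These windows held 67.2% and 74% G and C. The upstream window had 1 GC box and the inner one had 2. A GC box stands in 32.7% of the 32851 promoter windows of the same length. A GATA hexamer (A or T, then GATA, then A or G, on both strands; 26.5% of all windows) and AGAACA, the core of a progesterone response element (both strands; 16.1%), were searched too, and these letters are not in either Gata2 window. The arrays do not tell which start was used.

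The change of Gata2 was larger than that of Gata6, the other GATA factor with a probe set above the array median on every array, by 0.96 log2 within arrays. An exact two-sided permutation test over the arrays gave p = 0.1 (0.1 also after Benjamini-Hochberg adjustment over the 5 other GATA factors), the smallest value that 3 against 3 arrays can give, so this test could make no call. Ratios to the other 4 are not given, because their probe sets were too dim to serve as a reference.

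Gata1, Gata3, Gata4 and Gata5 were dim. All 6 of their probe sets lay below the array median on every array. The array carries probe sets for genes of the Y chromosome, which female tissue lacks, and these give an idea of unspecific signal. Of these, 14 of 15 were below the array median on every array, with means up to 91.2 (an s_at probe set of Uba1y). The other, an x_at probe set of Sry, had a mean of 279, above both group means of the second Gata6 and the leading Zfpm2 probe sets and the P4 mean of the leading Gata6 one, so a level above the array median does not by itself show expression. Among the Y-linked probe sets not marked x_at or s_at the highest mean was 62.3 (Zfy2), below the leading Gata4 and Gata5 means. The Y-linked probe sets were looked up after the member values were seen, and probe sets differ in how strongly they bind.

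Gata1, the factor of red cells, platelets, mast cells and eosinophils, read 37.6, 48.3 and 39.3 after Oil and 41.1, 49.1 and 56.1 after P4. The groups overlapped (0.16 ± 0.12, limma adjusted p 0.463). Gata3, known from T cells and innate lymphoid cells, read 50.8, 60.9 and 55.4 after Oil and 45.3, 56.8 and 60.4 after P4. Those groups overlapped as well (-0.036 ± 0.11, limma adjusted p 0.896), and the sign of this difference turned to 0.091 when arrays were scaled to the hybridisation controls.

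Genes of the blood cells in which these factors work were near the dim end too. Of the 5 erythroid genes measured 0 were above the array median on all arrays, as were 0 of 5 eosinophil genes, 1 of 8 mast cell genes, 2 of 5 megakaryocyte and platelet genes and 2 of 7 T and innate lymphoid genes. By limma 0 genes of the erythroid, eosinophil, mast cell, T and innate lymphoid and NK cell lists were called in either direction, and 0 had an unadjusted p under 0.05. The summed intensity of the 8 mast cell genes was 516 to 797 after Oil and 550 to 743 after P4, and that of the 5 erythroid genes was 335 to 358 and 339 to 378. In the megakaryocyte and platelet list Itga2b, an integrin chain of platelets, fell from 267 ± 27.1 to 170 ± 19.3 (-0.61 ± 0.11, limma adjusted p 0.0126), a call lost without Oil replicate 1 or 2 or P4 replicate 2 (at most 0.0638).

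Gata4, a factor of heart and gonad, had 77.2, 76.8 and 68.5 after Oil and 77.8, 69.5 and 78.7 after P4, in overlapping groups (0.018 ± 0.092, limma adjusted p 0.938). Its second probe set lay between 42.7 and 55.5 on all 6 arrays. Gata5 had 81.9, 81.6 and 81.2 after Oil and 93.8, 78.9 and 102 after P4. The Oil arrays were within 1 unit of each other, and P4 replicate 2 fell below them while the other P4 arrays were above (0.14 ± 0.10, limma adjusted p 0.48). Its second probe set had the opposite sign (-0.10 ± 0.09).

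Gata6 was the only GATA factor beside Gata2 with a probe set above the array median on every array; it had 2 of 3. Gata6 works in gut, lung, heart and steroid-making tissue. The leading probe set 1425464_at read 323, 377 and 261 after Oil and 236, 340 and 252 after P4. Arrays of the 2 groups interleaved, and P4 was below Oil for each replicate number, by 0.43, 0.14 and 0.047 log2. The difference was -0.21 ± 0.17 (limma adjusted p 0.522) and did not pass with the replicate block either (adjusted p 0.188). The second probe set had 170 ± 19.7 after Oil and 162 ± 18.4 after P4, and the third 61.2 ± 15.6 and 61.5 ± 5.68.

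**Figure D2:**
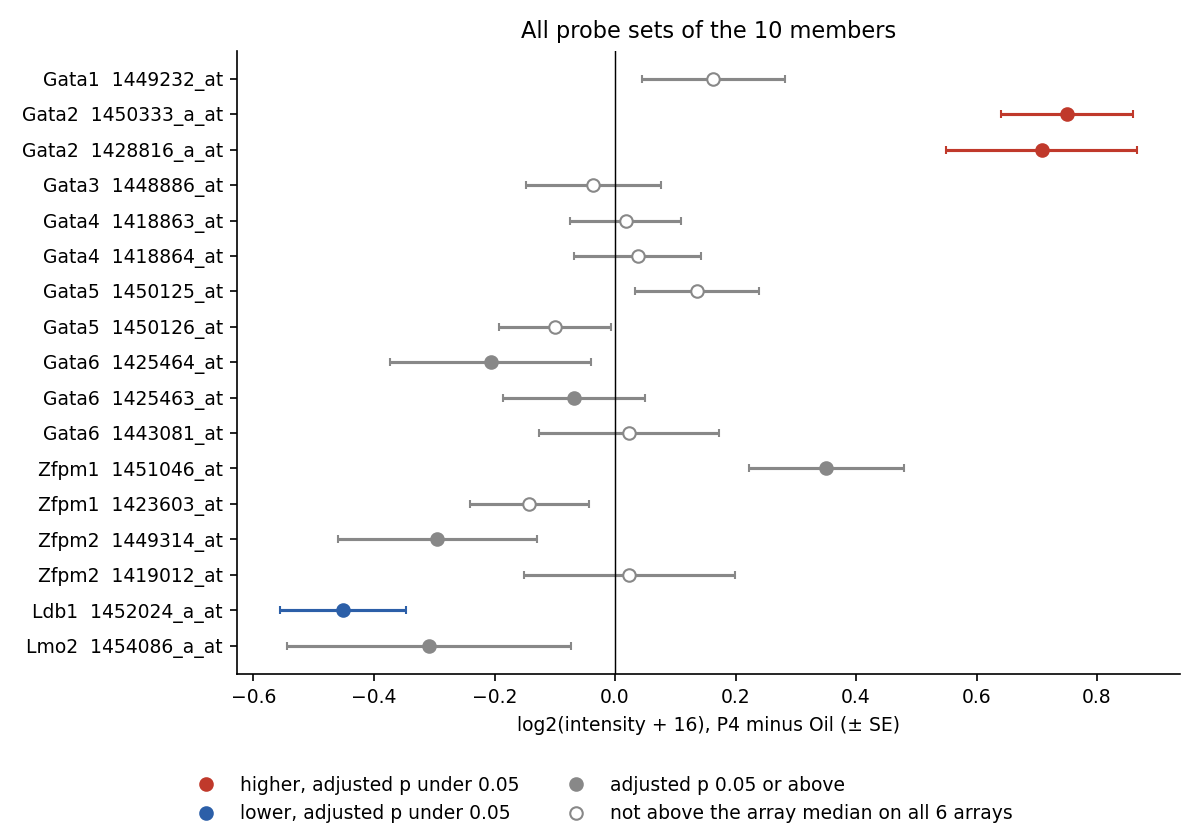
Log2 difference, P4 minus Oil, ± SE for the 17 probe sets of the 10 members, from limma over all probe sets with 1 gene symbol; colour gives calls at an adjusted p under 0.05 and open symbols mark probe sets that were not above the array median on all 6 arrays. The 2 Gata2 probe sets sit at 0.75 and 0.71, Ldb1 at -0.45, and the other 14 were not called.

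Among the FOG cofactors, Zfpm1 and Zfpm2 leaned in opposite directions, and neither passed the test. Zfpm1 (FOG1, the partner of Gata1 in blood) read 356, 320 and 314 after Oil and 503, 426 and 357 after P4 (1451046_at). Every P4 array was above every Oil array, though P4 replicate 3 was barely above Oil replicate 1. The difference was 0.35 ± 0.13 with a limma adjusted p of 0.122 and an unadjusted p of 0.0262.

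With the replicate block Zfpm1 was called (adjusted p 0.0288). P4 was above Oil for each number, by 0.48, 0.40 and 0.17 log2. It was also called without P4 replicate 3 (adjusted p 0.046). Its other probe set, 1423603_at, was below the array median on every array, with 69.0 ± 6.37 after Oil and 61.0 ± 5.07 after P4 (-0.14 ± 0.10). The mean of both probe sets gave 0.10 (adjusted p 0.565).

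Zfpm2 (FOG2, known from heart and gonad) read 277, 303 and 241 after Oil and 221, 278 and 171 after P4. The groups overlapped, and the difference was -0.29 ± 0.17 (limma adjusted p 0.327). Within each replicate number P4 was below Oil, by 0.31, 0.12 and 0.46 log2, and the block gave an adjusted p of 0.0621. The other probe set had 121 ± 12.8 after Oil and 126 ± 38.8 after P4, with P4 replicate 1 at 171 and the remaining 5 arrays at 104 to 136.

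Of the 15 genes for corepressors that FOG proteins recruit, all were above the array median on every array. By limma 0 were called in either direction, while 3 had an unadjusted p under 0.05, all of them higher, against 26.6% of all genes in either direction. Blocking on the replicate number gave 2 calls, both higher, against 9.29% of all genes higher. In 6 of the 15 every P4 array was above every Oil array, and in 2 every P4 array was below, against 14.3% and 17.5% of all genes. The median difference of the list was 0.12. Scaling to the hybridisation controls gave 1 call, higher, against 1927 of all 18193 genes higher.

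**Figure D3:**
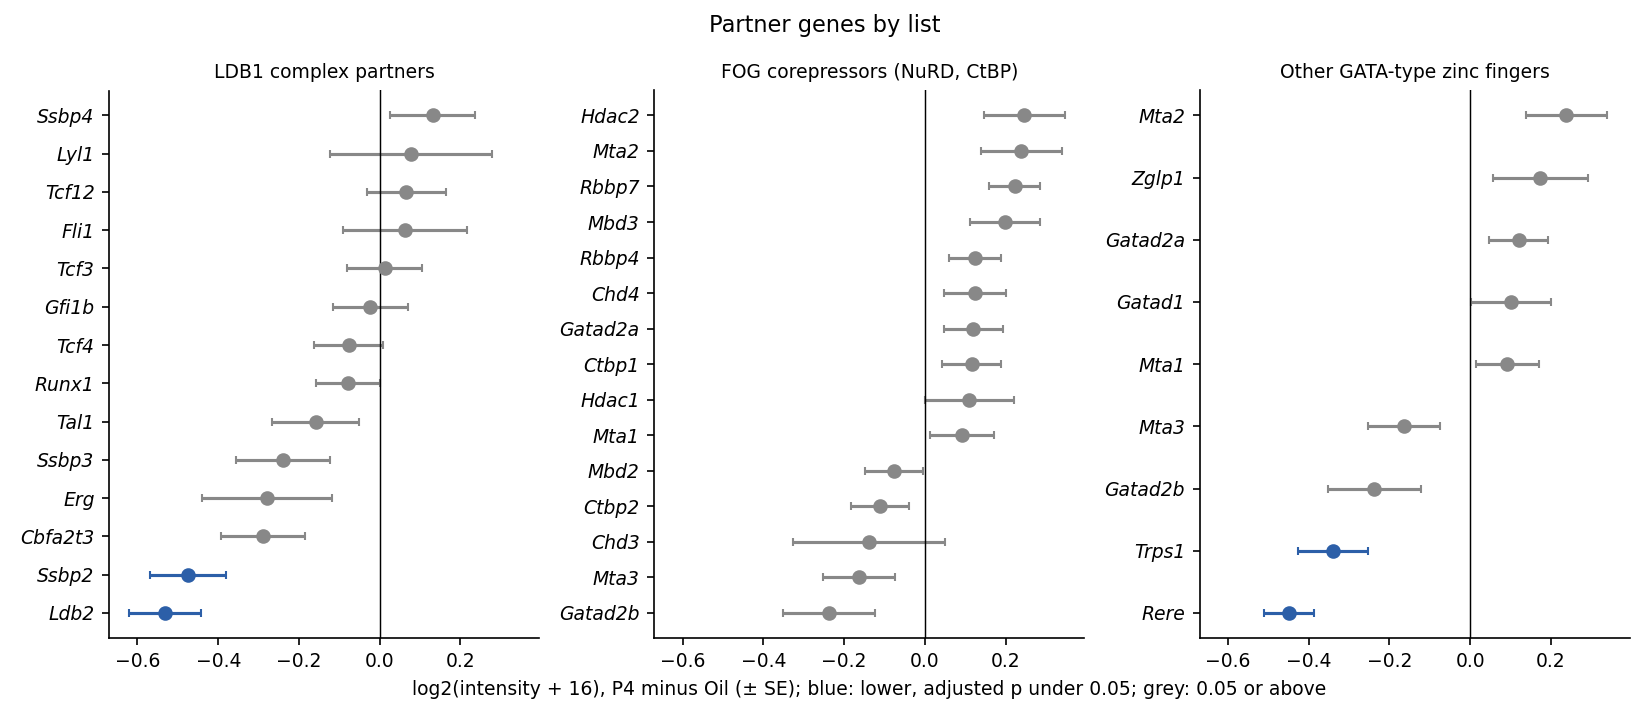
Log2 difference, P4 minus Oil, ± SE (limma, 1 probe set per gene) for partner genes in 3 lists: LDB1 complex partners, FOG corepressors and other GATA-type zinc finger proteins. Mta1, Mta2, Mta3, Gatad2a and Gatad2b are in both the corepressor list and the zinc finger list. Blue points are lower at an adjusted p under 0.05, namely Ldb2, Ssbp2, Rere and Trps1; no gene of these lists was called higher.

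Ldb1 fell after P4. Its probe set 1452024_a_at read 874, 770 and 782 after Oil and 663, 563 and 540 after P4. All P4 arrays were below all Oil arrays. The means were 809 ± 56.7 and 589 ± 65.5, and the log2 difference was -0.45 ± 0.10 with a limma adjusted p of 0.0257. Within the replicate numbers P4 was below Oil by 0.39, 0.44 and 0.52 log2. The call was lost in 5 of the 6 fits that left out 1 array, all but that without P4 replicate 1 (adjusted p 0.0124 to 0.102), and under scaling to the hybridisation controls (-0.32, adjusted p 0.0834). Without both arrays numbered 2 the adjusted p was 0.206.

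RefSeq gives Ldb1 3 starts on the reverse strand. The 250 bases before the innermost one (build GRCm38.p6) are shown. The search covered 9 windows of 6 members (Gata1, Gata2, Gata3, Gata5, Zfpm1 and Ldb1). Gata4, Gata6, Zfpm2 and Lmo2 were not searched. Of the windows searched, only this one held the letters of a GATA hexamer or of AGAACA, which is why it is shown. The capitals mark these letters on either strand: TTATCT is a GATA hexamer read on the other strand, and TGTTCT is AGAACA read likewise.
Ldb1, innermost start, chr19:46037071-46037320, minus strand: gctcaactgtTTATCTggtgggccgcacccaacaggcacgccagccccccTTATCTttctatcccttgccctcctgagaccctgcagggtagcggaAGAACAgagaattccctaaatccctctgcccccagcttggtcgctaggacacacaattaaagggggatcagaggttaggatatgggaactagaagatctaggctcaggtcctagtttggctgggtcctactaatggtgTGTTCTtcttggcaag
The window held 2 GATA hexamers and 2 copies of AGAACA, and 53.2% G and C. The other 8 windows searched each held at least 1 GC box. Of all 32851 promoter windows of this length 26.5% held a GATA hexamer and 16.1% held AGAACA. A match of letters is a description only, and the probe set does not separate the 3 starts.

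Ldb2, the closest relative of Ldb1, and Ssbp2, a single-stranded DNA binding protein that stabilises LDB proteins, also fell. Ldb2 read 1053, 1100 and 917 after Oil and 732, 682 and 689 after P4. No array overlapped, and the difference was -0.53 ± 0.09 (limma adjusted p 0.00891; at most 0.0467 with any 1 array left out). All 3 of its probe sets had the same sign. Ssbp2 read 1621, 1423 and 1322 after Oil and 1060, 1081 and 979 after P4, again without overlap. Its difference was -0.47 ± 0.09 (limma adjusted p 0.0156). This call was lost without Oil replicate 1 or 2 (at most 0.063), when its 4 probe sets were averaged (0.055) and under scaling to the hybridisation controls (0.0774). Ldb2 lost its call only without both arrays numbered 2 (0.148), among the scaling to controls, the block and the fits without 1 or 2 arrays.

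These were the 2 calls among 14 LDB1 complex partners, beside 0 higher, a share close to the 13% of all genes called (6.94% lower), with 12 of the 14 above the array median on every array and a median difference of -0.077. With the replicate block 4 were lower and 0 higher, against 11.6% and 9.29% of all genes. Tal1, the helix-loop-helix partner of Lmo2, read 148, 176 and 190 after Oil and 143, 158 and 152 after P4, in overlapping groups. Cbfa2t3, a corepressor of the complex, had 802 ± 80.8 after Oil and 653 ± 53.4 after P4 (-0.29 ± 0.10, limma adjusted p 0.113). A further list held 16 genes: LIM domain proteins that bind LDB1 directly, and Rlim, which ubiquitinates LDB1 and is not a LIM domain protein. Of these only Lmo4 and Rlim were above the array median on all arrays. By limma 0 of the 16 were called, with 1 at an unadjusted p under 0.05: Lmo4 had 563 ± 62.4 after Oil and 672 ± 7.52 after P4 (0.25 ± 0.09, adjusted p 0.126). Scaling to the hybridisation controls gave 1 call, higher, against 1927 of all 18193 genes higher. Tal1, Cbfa2t3, Lmo4 and Rlim were named after their values were seen.

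Lmo2, the LIM-only bridge between TAL1 and GATA factors in blood and endothelium, varied more between replicate numbers than between groups. It read 437, 700 and 734 after Oil and 355, 537 and 609 after P4. The groups overlapped, the arrays numbered 1 were the lowest of each group, and the means were 624 ± 162 and 500.04 ± 131. The difference was -0.31 ± 0.24 with a limma adjusted p of 0.501. Within the numbers P4 was below Oil by 0.29, 0.37 and 0.26 log2, and with the replicate block Lmo2 was called lower (-0.31 ± 0.07, adjusted p 0.024).

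Macrophage and endothelial genes are set beside Lmo2, which both cell types can express. The summed intensity of 6 macrophage genes was 1530, 2665 and 4227 on Oil arrays 1 to 3 and 1359, 3858 and 4606 on P4 arrays 1 to 3, so here too number 1 was the lowest of each group. By limma 0 macrophage genes were called and 0 had an unadjusted p under 0.05. The 10 endothelial genes, all above the array median on every array, summed to 7753, 9519 and 8837 after Oil and 7163, 7118 and 7099 after P4, without overlap. Of these 10 genes 2 fell and 0 rose: the tight junction gene Cldn5 (1586 ± 400.03 to 814 ± 39.3, -0.92 ± 0.16, limma adjusted p 0.00923) and the angiopoietin receptor Tek (769 ± 82.9 to 583 ± 30.7, -0.38 ± 0.10, 0.0404). Of all genes 6.94% were called lower and 6.08% higher. At an unadjusted p under 0.05, 4 endothelial genes were lower and 0 higher, against 26.6% of all genes in either direction. The replicate block called 3 of them lower and 0 higher, against 11.6% and 9.29% of all genes. The Tek call was lost in 5 of 6 fits without 1 array (at most 0.132) and under scaling to the hybridisation controls (0.132). The part of these cell types in the values of Lmo2, Ldb1, Ldb2 and Gata2 was not tested.

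Of 9 other proteins with GATA-type zinc fingers that were measured, 2 fell and 0 rose, against 6.94% lower and 6.08% higher of all genes. Above the array median on all arrays were 8. Mta1, Mta2, Mta3, Gatad2a and Gatad2b of this list were also counted among the FOG corepressors, so the lists are not separate. Rere, a nuclear receptor corepressor of the atrophin family, went from 3473 ± 85.6 to 2541 ± 51.0 (-0.45 ± 0.06, limma adjusted p 0.00425). Over its 3 probe sets, 1 of them of opposite sign, the mean difference was -0.30 (0.0337). The call held without any 1 array (at most 0.0254), and not without both arrays numbered 2 (0.0907). Trps1, a repressor that binds GATA sites, went from 1832 ± 147 to 1442 ± 84.5 (-0.34 ± 0.09, 0.0396). That call was lost in 4 of 6 fits without 1 array (at most 0.148), under scaling to the hybridisation controls (0.203) and when its 4 probe sets were averaged (0.191). Of 5 GATA coactivators by limma 0 were called, and 2 had an unadjusted p under 0.05, 1 in each direction. Blocking on the replicate number gave 1 call, lower, against 11.6% of all genes lower. With scaling to the hybridisation controls 1 was called, higher, against 1927 of all 18193 genes higher.

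Of 12 measured uterine progesterone genes that have been linked to Gata2, 7 rose and 1 fell, against 6.08% and 6.94% of all genes. This list was drawn up with earlier results of these data known, so its count is not independent evidence. The largest increases were those of Lrp2 (3.36 ± 0.20), Il13ra2 (3.05 ± 0.14) and Cyp26a1 (2.96 ± 0.30), against the 0.75 of Gata2. The decrease was that of the progesterone receptor gene Pgr (-0.86 ± 0.08). Their limma adjusted p ran from 0.00021 to 0.00145. These sizes and their order are those of the leading probe sets. Averaged over 3 probe sets, the difference was 2.30 for Lrp2 and -0.64 for Pgr. Il13ra2 and Cyp26a1 have 1 probe set each. Without single arrays 4 to 7 of the list were called higher.

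Tissue markers of the horn gave the following counts, beside 6.08% of all genes called higher and 6.94% lower. Among 8 stromal genes the homeobox genes Hoxa11 (0.89 ± 0.08, limma adjusted p 0.00086) and Hoxa10 (0.81 ± 0.10, 0.00262) rose and the matrix proteoglycan Lum fell (-0.90 ± 0.18, 0.0156; 0.0698 without Oil replicate 2). With the replicate block 4 stromal genes were called higher and 1 lower, against 9.29% and 11.6% of all genes. The summed stromal intensity was 41861 to 45917 after Oil and 40556 to 48939 after P4. By limma 0 of 7 epithelial genes were called, while 2 had an unadjusted p under 0.05, both lower. The replicate block gave 3 epithelial calls, all lower, against 11.6% of all genes lower. The epithelial sum was 14207 to 16065 after Oil and 8848 to 14283 after P4, in overlapping groups with P4 replicate 2 the lowest. By limma 0 of 6 smooth muscle genes were called, and 0 had an unadjusted p under 0.05. By limma 0 of 5 mesothelial genes were called, and 1 was lower at an unadjusted p under 0.05. Whether epithelial share moved with Gata2 or Ldb1 was not tested.

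The genes closest to Gata2 across the 6 arrays were Ric1, Gcnt2, Jakmip1, Secisbp2l and Bcl2l1. Closeness is the root mean square difference of log2 values after each gene is centred on its own mean, and it was 0.058 for Ric1 and 0.072 for Bcl2l1. Ric1 read 512, 478 and 451 after Oil and 927, 722 and 681 after P4. Bcl2l1, an inhibitor of cell death, read 592, 554 and 537 and then 1262, 863 and 841. As for Gata2, Oil replicate 3 was the lowest and P4 replicate 1 the highest array for both. The genes closest to Ldb1 were Magi3, Lonrf1, Tsc1, BC053393 and 1700094D03Rik, at 0.022 to 0.039. Tsc1, a brake on mTOR signalling, read 483, 453 and 439 after Oil and 369, 318 and 301 after P4. Of 4 Bcl2l1 probe sets 1 had the opposite sign, and their mean difference was 0.35 against 0.78 for the one shown. Of 3 Tsc1 probe sets 1 had the opposite sign, and their mean was -0.21 (limma adjusted p 0.123) against -0.46. Probe sets of opposite sign were also found for Gcnt2, Jakmip1 and Magi3. These genes share the arrays with Gata2 and Ldb1 and were picked for likeness among 18193, so no test applies.

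**Figure D4:**
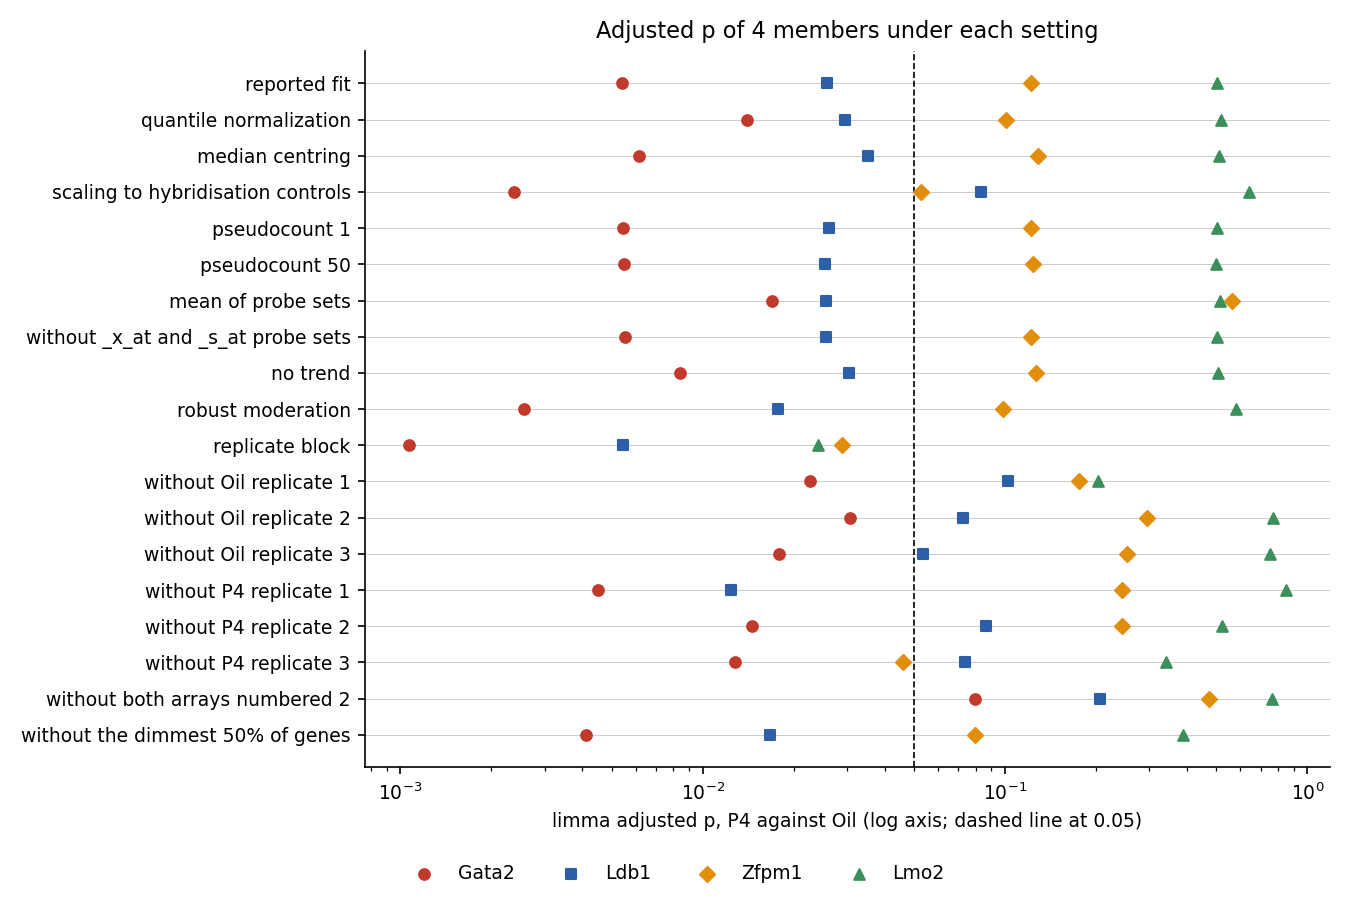
Limma adjusted p (log axis, dashed line at 0.05) of Gata2, Ldb1, Zfpm1 and Lmo2 under the reported fit and 18 other settings. Gata2 stays left of the line except without both arrays numbered 2 (0.0793). Ldb1 crosses it in 5 of the 6 fits without 1 array. It also does so under scaling to the hybridisation controls (0.0834) and without both arrays numbered 2 (0.206). Zfpm1 is left of the line with the replicate block (0.0288) and without P4 replicate 3 (0.046), and Lmo2 with the replicate block alone.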

How the data were processed

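Expression was measured on 6 arrays, 3 Oil and 3 P4, with biotin-labelled cRNA, per the labels. What the authors deposited is 1 linear intensity for every probe set and array; their summarisation and scaling: not given in the sources used here. Precision is limited by the number of arrays. Gene names came from the platform annotation: 34945 of 45101 probe sets had 1 symbol. The members, lists and tests were chosen with earlier results of these data known.

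A gene was represented by its probe set of highest mean log2 over the 6 arrays, without further normalization. P4 was compared with Oil in R 4.3.3 by limma 3.58.1 (lmFit, eBayes with trend) on log2(intensity + 16), adjusted by Benjamini-Hochberg over 18193 genes with a threshold of 0.05; a second fit covered all single-symbol probe sets. The test was tested on simulated data, with noise independent between arrays and recovery scored only for shifts larger than those of Gata2 and Ldb1. Named are all members, up to 3 called genes in each direction of each of 18 lists, and the 5 genes closest to each called member; Tal1, Cbfa2t3, Lmo4 and Rlim were added after their values were seen.

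Same-numbered Oil and P4 arrays deviated together from their group means (correlations 0.53, 0.13 and 0.64, all over 0.1), which was taken as pairing, although Oil array 2 was closer to P4 array 1 (0.29) than to P4 array 2; its basis is the data, not the labels. Promoter sequences are RefSeq, GRCm38.p6. Alternatives were other normalizations, pseudocounts of 1 and 50, other probe set rules, moderation, a dim filter, the replicate block and left-out arrays. Figures used matplotlib 3.10.9.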

Additional observations from a re-analysis of the deposited data

How the results depend on the processing

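Gata2 kept its direction in all 18 alternatives and its call in 17; without both arrays numbered 2 it had 0.83 (adjusted p 0.0793). Ldb1 kept its direction in all 18 and its call in 11. It was -0.32 with scaling to the hybridisation controls, which moved the median of all genes by 0.13, and -0.46 without both arrays numbered 2, and -0.54 to -0.39 with 1 array left out. The count of called members, 2, became 1 with scaling to the hybridisation controls, 4 with the replicate block, 0 without both arrays numbered 2, and 1 to 2 with 1 array left out. The count of called member probe sets, 3, became 5 with the replicate block, 0 without both arrays numbered 2, and 1 to 3 with 1 array left out. Called genes over the whole array, 2368, became 3801 with the replicate block (all 2368 among them), 171 without both arrays numbered 2, and 993 (without Oil replicate 2) or more with 1 array left out, up to 2302. Scaling to the hybridisation controls gave 2551 called genes, 1730 of them shared with the 2368. Its balance of directions moved, with 1927 higher and 624 lower against 1106 and 1262 in the reported fit. Called list genes, 18, became 29 with the replicate block and 10 to 20 with 1 array left out. Of the members that were not called, 2 changed sign. Gata3 was 0.091 with scaling to the hybridisation controls, 0.016 without Oil replicate 2 and 0.058 without P4 replicate 1 (-0.10 to 0.058 over the fits without 1 array). Gata4 was -0.028 without Oil replicate 3, -0.0019 without P4 replicate 1 and -0.0091 without P4 replicate 3 (-0.028 to 0.065 over the fits without 1 array). The block changed no call of a member other than Zfpm1 and Lmo2. Fewer arrays leave fewer degrees of freedom; the cause of the other changes was not tested. Dim probe sets (Gata1, Gata3, Gata4, Gata5) were below the array median on every array, as were 14 of 15 Y-linked ones, so changes in them may not be detectable here.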
